A study of Mus musculus with 6 samples.

Results

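p53 (*Trp53*) and 9 of its classical target genes were followed in the livers of male mouse pups in which a human *SRY* transgene was or was not switched on. The members were *Trp53*, *Mdm2*, *Cdkn1a*, *Ccng1*, *Bax*, *Trp53inp1*, *Phlda3*, *Gdf15*, *Btg2* and *Sesn1*, and every array probe that carried 1 of these symbols was included. This gave 19 of the 25697 probes on the array and 10 of its 18138 gene symbols. *Cdkn1a* stood out: all 3 of its probes were 3.27 to 3.71-fold brighter in hSRY-ON livers, while the single probe of *Trp53* itself did not differ detectably.

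Liver total RNA of 3 hSRY-OFF and 3 hSRY-ON males at postnatal day 6 (P6), FVB by their labels and FVB/N by the study's methods, was hybridised to Illumina MouseRef-8 bead arrays, 1 array per pup. Per the study's methods, pups of both groups carried a cassette named *Signalox-hSRY*, inserted once at *H11* and driven by the *CAG* promoter, which is active in most cell types. In hSRY-OFF pups the cassette was unrecombined, so that DsRed2 was made and *hSRY* was silent. In hSRY-ON pups Cre protein from the oocyte of a *Ddx4-Cre* mother had recombined it in the early embryo, so that FLAG-tagged human SRY and EGFP were made throughout the body, and the hSRY-ON pups chosen for the arrays did not themselves carry *Ddx4-Cre*. The study's results also call the array controls control pups, and its methods define control littermates as lacking the cassette. With hSRY-OFF read as an unrecombined cassette, effects of human SRY and of the exchange of DsRed2 for EGFP cannot be told apart. Oocyte Cre acted whatever the pup inherited, so such hSRY-OFF pups would have come from mothers without *Ddx4-Cre*. Effects of mother and litter could then not be told apart from that of the group. All cassettes came from a single integrated line. The study also reports minimal suckling, slowed growth and fatty livers in hSRY-ON pups. Effects that go with these cannot be told apart here either. The human transgene had no probe used here, so the group labels were not checked through it.

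p53 is a transcription factor that is held at a low level by Mdm2, a ubiquitin ligase that marks it for breakdown, and that is released by DNA damage and other stress. Much of its control acts on the protein and not on its mRNA, so that its activity is commonly read from its targets. Among these, p21 (*Cdkn1a*) blocks cyclin-dependent kinases and halts the cell cycle, Bax permeabilises mitochondria in apoptosis, and Mdm2 closes a feedback loop. In liver, *Cdkn1a* is also known to respond to fasting, glucocorticoids and other stress without p53, and *Gdf15* and *Sesn1* likewise have inducers besides p53.

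The promoter of *Cdkn1a* is shown because it is the member with the largest difference per unit of error and the one member window that held a complete p53 response element. RefSeq promoter windows (assembly GRCm38.p6, 250 bases before to 50 bases after a transcription start) were found for 9 of the 10 members, 12 windows in all, and *Trp53inp1* had none in the table. A p53 half-site, 10 bases long, was searched for with no letter off, and a full site as 2 half-sites at most 13 bases apart with at most 1 letter off outside the cores; the motif is its own reverse complement, so 1 strand covers both. The 250 bases before the more upstream of the 2 *Cdkn1a* starts, chr17:29090729-29090978 on the + strand, read 5′ to 3′ as follows, with the half-sites that form full sites in capitals:
*Cdkn1a* upstream start: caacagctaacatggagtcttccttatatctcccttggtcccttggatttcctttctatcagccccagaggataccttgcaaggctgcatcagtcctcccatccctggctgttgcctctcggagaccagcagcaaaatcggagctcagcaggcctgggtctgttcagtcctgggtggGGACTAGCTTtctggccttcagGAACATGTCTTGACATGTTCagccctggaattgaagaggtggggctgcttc
The capitals lie between 73 and 32 bases before the start (chr17:29090906-29090947). The last of the 3 half-sites is 1 letter off and touches the middle one, and the first and the middle one lie 12 bases apart. The second *Cdkn1a* start lies 2790 bases further downstream, and its window held no half-site.

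A full site was found in 1 of the 12 member windows and in 0.417% of all 32851 windows. A half-site was found in 6 of the 12 member windows, against 8.36% of all windows, and these belonged to 6 genes. The single half-sites of the other genes are shown with 10 flanking bases on either side, half-site in capitals:
*Mdm2*: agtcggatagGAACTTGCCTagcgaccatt
*Ccng1*: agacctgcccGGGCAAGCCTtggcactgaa
*Bax*: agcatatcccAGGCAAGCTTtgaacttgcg
*Sesn1*: cttggccttcAAGCTTGTTTttgctggcct
*Trp53*: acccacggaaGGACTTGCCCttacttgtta
Other motifs were counted on both strands of the same windows. The GC box GGGCGG was present in 7 of 12 member windows and 35.7% of all, the TATA box TATAAA in 1 of 12 and 13.6%, and the forkhead motif GTAAACA, which lay in the windows of *Mdm2* and *Sesn1*, in 2 of 12 and 3.65%. These matches describe the letters of the windows and were not tested for binding.

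Values are normalized log2 intensities, that is, bead intensities after background correction and quantile normalization. A probe was tested if at least 3 of the 6 arrays detected it (detection p under 0.01), and it was called if limma's adjusted p over all 10734 tested probes was under 0.05. Of the 19 member probes 15 were tested, and each of them was detected on all 6 arrays, so none passed through 1 group alone. The remaining 4 were detected on no array: the only probe of *Btg2*, an antiproliferative gene, and 1 of several probes each of *Mdm2*, *Phlda3* and *Trp53inp1*. *Btg2* therefore had no measured level, and its probe read 4.47 to 4.67 in hSRY-OFF and 4.596 to 4.91 in hSRY-ON livers.

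Of the 15 tested probes 9, from 7 genes, were higher in hSRY-ON livers, which is 60% of them. The members, and the lists below, were chosen with earlier results of these data known, which limits what such shares can show. Over the whole array, 15.8% of tested probes were called higher and 17.3% lower. No member probe was called lower by limma, 0 were lower at an unadjusted p under 0.05, and 11 were higher at that level, at which 23.0% of all tested probes were higher and 22.4% lower. Differences were positive for 14 of the 15 probes and had a median of 0.70 log2 units, against 0.017 over all tested probes. In 11 of the 15 every hSRY-ON value lay above every hSRY-OFF value, which held for 25.4% of all tested probes.

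**Figure D1:**
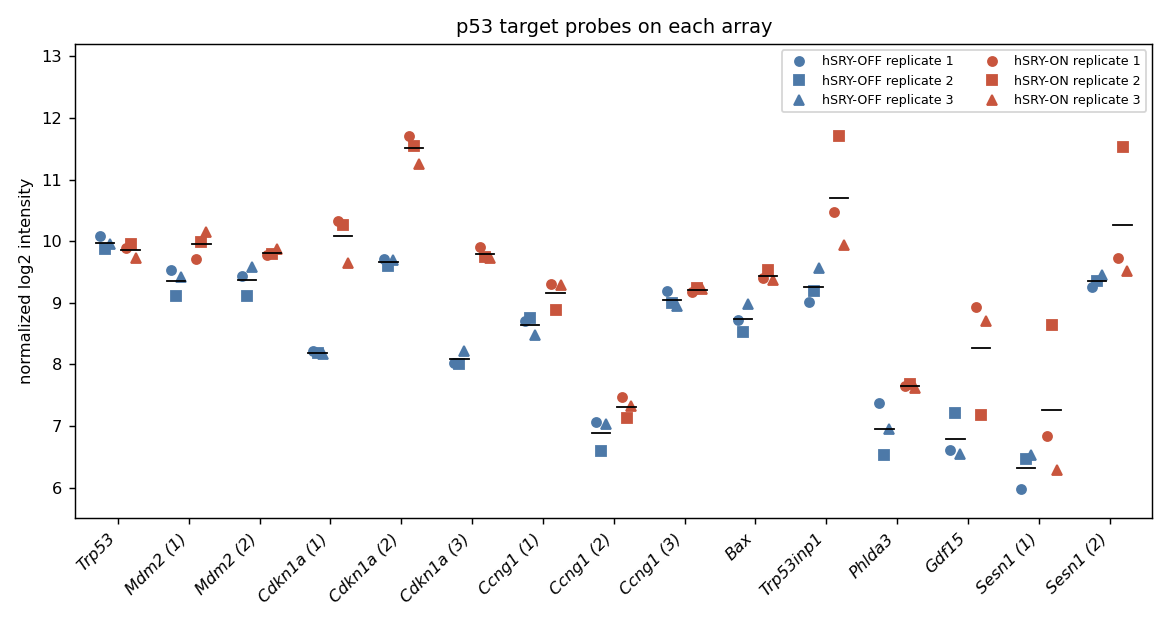
Normalized log2 intensity (vertical axis) of the 15 tested member probes on each of the 6 arrays, hSRY-OFF in blue and hSRY-ON in red, with a symbol shape per replicate number and a black line at each group mean; probes of a gene are numbered by falling difference. The 3 *Cdkn1a* probes separate the groups by more than 1 log2 unit, while *Trp53inp1*, *Gdf15* and *Sesn1* are set apart by hSRY-ON replicate 2.

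The hub of the pathway did not move with its targets. The *Trp53* probe ILMN_2466845 read 10.09, 9.88 and 9.96 in hSRY-OFF and 9.89, 9.95 and 9.73 in hSRY-ON livers. The groups overlapped. The difference was -0.12 ± 0.12 log2 units (SE, n = 3 per group; limma adjusted p = 0.502), with a 95% confidence interval from -0.41 to 0.17, so that a change in *Trp53* mRNA larger than these bounds was not seen.

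*Mdm2*, the negative regulator of p53 and 1 of its targets, was modestly higher on 1 probe. Probe ILMN_1250774 read 9.53, 9.12 and 9.41 in hSRY-OFF and 9.72, 9.98 and 10.14 in hSRY-ON livers, the lowest hSRY-ON pup lying 0.18 log2 units above the highest control. It differed by 0.59 ± 0.17 (limma adjusted p = 0.0308), a 1.51-fold rise. Probe ILMN_2850753 read 9.44, 9.11 and 9.57 against 9.77, 9.79 and 9.86. These groups did not overlap either, and the 3 hSRY-ON pups lay close together, yet the difference of 0.43 ± 0.15 missed the threshold (limma adjusted p = 0.0573). The first probe kept its call without hSRY-ON replicate 1 but lost it without any other single array (adjusted p 0.0539 to 0.106), and the second was called under 5 of 16 alternatives.

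*Cdkn1a*, which encodes the cyclin-dependent kinase inhibitor p21, rose the most clearly. Probe ILMN_2634083 read 9.71, 9.60 and 9.69 in hSRY-OFF and 11.71, 11.55 and 11.26 in hSRY-ON livers. Probe ILMN_2846776 read 8.02, 8.001 and 8.22 against 9.91, 9.74 and 9.73, and probe ILMN_2846775 read 8.21, 8.19 and 8.16 against 10.33, 10.26 and 9.64. On each probe the controls lay within 0.22 log2 units of each other and the lowest hSRY-ON pup was at least 1.43 log2 units above the highest control, replicate 3 being the lowest of the hSRY-ON pups each time. The fitted differences were 1.84 ± 0.15, 1.71 ± 0.12 and 1.89 ± 0.19 (limma adjusted p = 0.000264, 0.000188 and 0.000698). As folds they were 3.57 (95% confidence interval 2.82 to 4.52), 3.27 (2.68 to 4.001) and 3.71 (2.71 to 5.08), and these intervals overlapped. All 3 were called under each of the 16 alternatives, with adjusted p at most 0.00546. Among all tested probes these differences lay at percentiles 98.6 to 98.9.

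*Ccng1* encodes cyclin G1, a p53 target that recruits phosphatase 2A to Mdm2, and its 3 probes gave unequal answers. Probe ILMN_2710229 read 8.70, 8.75 and 8.48 in hSRY-OFF and 9.30, 8.88 and 9.28 in hSRY-ON livers, without overlap, and rose by 0.51 ± 0.16 (limma adjusted p = 0.0421). Probe ILMN_2702233 read 7.06, 6.59 and 7.03 against 7.47, 7.13 and 7.33, also without overlap, with a difference of 0.42 ± 0.17 that missed the threshold (limma adjusted p = 0.0989). Probe ILMN_2500276 overlapped between the groups, reading 9.19, 9.003 and 8.95 against 9.18, 9.24 and 9.22, with a difference of 0.16 ± 0.12 (limma adjusted p = 0.325). Taken as the mean of its probes, *Ccng1* differed by 0.36 ± 0.12 and was not called (limma adjusted p = 0.0570). The single call was lost without any array other than hSRY-ON replicate 2 (adjusted p 0.0788 to 0.126).

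*Bax*, the apoptosis effector, rose by a small and steady amount. Its probe ILMN_2907655 read 8.72, 8.52 and 8.98 in hSRY-OFF and 9.41, 9.53 and 9.37 in hSRY-ON livers. The hSRY-ON pups lay within 0.17 log2 units of each other and above every control. The difference was 0.70 ± 0.15 (limma adjusted p = 0.0117), a 1.62-fold rise with a 95% confidence interval from 1.27 to 2.06. With *Cdkn1a*, it was the other member called under all 16 alternatives, though without hSRY-OFF replicate 1 its adjusted p reached 0.0499. Unlike *Cdkn1a*, it was not called at an adjusted p under 0.01.

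*Phlda3*, a p53 target that restrains Akt at the membrane, behaved similarly in size but with wider controls. Its probe ILMN_2923607 read 7.37, 6.52 and 6.95 in hSRY-OFF and 7.65, 7.68 and 7.61 in hSRY-ON livers. The hSRY-ON values were nearly identical, the controls spanned 0.85 log2 units, and the groups did not overlap. The difference was 0.70 ± 0.21 (limma adjusted p = 0.0380), and the call was lost without any array other than hSRY-OFF replicate 1 (adjusted p 0.0555 to 0.0934).

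**Figure D2:**
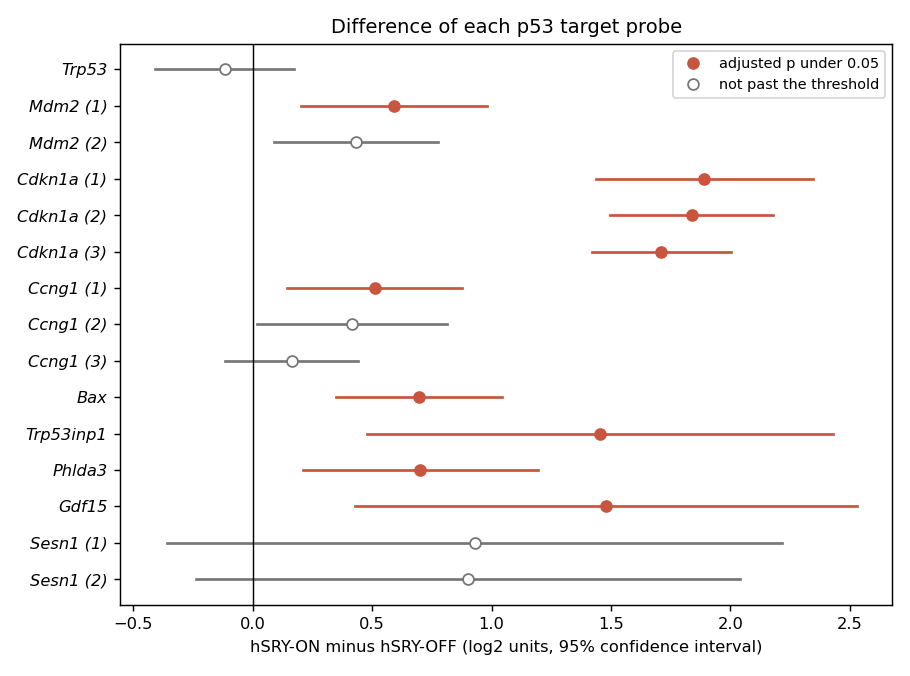
Difference hSRY-ON minus hSRY-OFF (horizontal axis, log2 units) of each tested member probe, with its 95% confidence interval from limma; filled red points had an adjusted p under 0.05 and open grey points did not. The *Cdkn1a* intervals start at 1.42, 1.44 and 1.497, above the point estimates of *Bax*, *Phlda3*, *Mdm2* and *Ccng1*, while the intervals of *Trp53inp1*, *Gdf15* and *Sesn1* are the widest.

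For the other 3 genes, hSRY-ON replicate 2 departed from the other hSRY-ON pups. *Trp53inp1*, which encodes a stress protein that takes part in p53 signalling and autophagy, read 9.01, 9.18 and 9.56 in hSRY-OFF and 10.47, 11.70 and 9.94 in hSRY-ON livers on probe ILMN_2506012. All hSRY-ON pups exceeded the controls, replicate 2 by far the most. The difference was 1.45 ± 0.42 (limma adjusted p = 0.0331), and it was 0.96 without that replicate (adjusted p = 0.0240). The call was lost without any hSRY-OFF array or without hSRY-ON replicate 1 (adjusted p 0.0561 to 0.109).

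*Sesn1* encodes sestrin 1, which restrains mTORC1 and supports antioxidant defence. Probe ILMN_3136744 read 9.25, 9.35 and 9.46 in hSRY-OFF and 9.72, 11.53 and 9.51 in hSRY-ON livers, and probe ILMN_3059476 read 5.98, 6.46 and 6.53 against 6.83, 8.64 and 6.29. On both probes replicate 2 lay 1.81 log2 units above the higher of the other hSRY-ON pups, and on the first probe the groups did not overlap, while on the second replicate 3 lay among the controls. Replicate 1 exceeded every control on both. The differences of 0.90 ± 0.49 and 0.93 ± 0.55 were not called (limma adjusted p = 0.190 and 0.229), and without hSRY-ON replicate 2 they were 0.27 and 0.24 (adjusted p = 0.200 and 0.489).

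*Gdf15*, a secreted stress hormone of the TGF-beta superfamily that lowers appetite, showed the opposite arrangement. Its probe ILMN_2735350 read 6.61, 7.22 and 6.54 in hSRY-OFF and 8.92, 7.17 and 8.71 in hSRY-ON livers. hSRY-ON replicates 1 and 3 were well above every control, and replicate 2 lay inside the control range. The difference was 1.48 ± 0.45 (limma adjusted p = 0.0400), a 2.79-fold rise. Without replicate 2 it was 2.03 (adjusted p = 0.00185), and without any other single array it was not called (adjusted p 0.0623 to 0.122).

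Such a departure was uncommon: hSRY-ON replicate 2 lay at least 1 log2 unit above both other hSRY-ON arrays in 0.848% of tested probes (91) and at least 1 below both in 0.540% (58). The *Sesn1*, *Trp53inp1* and *Gdf15* probes were 4 of these. The same array carried digestive enzyme transcripts of the exocrine pancreas, a list added after its values were seen. The summed intensity of the list was 3160 on that array, 908 to 1085 in hSRY-OFF livers and 1096 and 1442 on the other hSRY-ON arrays, with 12 of its 15 genes detected on at least 1 array and *Pnlip*, *Prss2* and *Ptf1a* on none. Its part in the values of *Sesn1*, *Trp53inp1* and *Gdf15* was not tested.

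**Figure D3:**
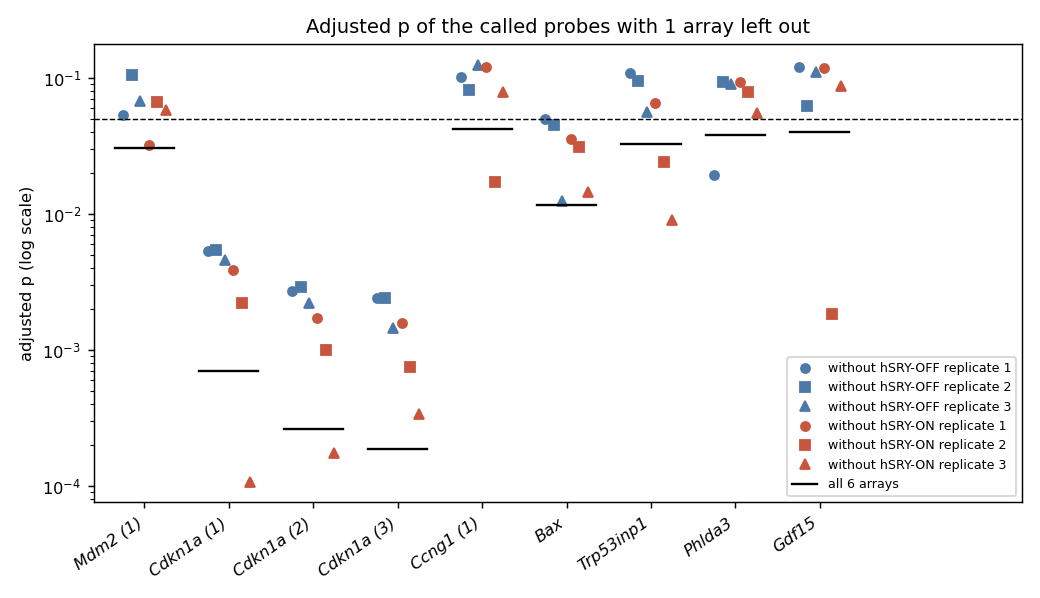
Adjusted p from limma (vertical axis, log scale) of the 9 called member probes with all 6 arrays (black line) and with each array left out in turn (blue for hSRY-OFF, red for hSRY-ON, a shape per replicate); the dashed line marks 0.05. The *Cdkn1a* and *Bax* points stay under the line for each array left out, and the other genes cross it for 4 or 5 of the 6.

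The level of *Cdkn1a* was set against all other tested genes over the 6 arrays, as a description without a test. By Pearson correlation with probe ILMN_2634083, the closest patterns were those of *Cybrd1* (r = 0.999), *Cpt1b* (0.999), *Eno2* (0.999), *Pkn2* (0.998) and *Pfkp* (0.998). *Cybrd1*, a ferric reductase, *Cpt1b*, the muscle form of the carnitine acyltransferase, and *Eno2* and *Pfkp*, glycolytic enzymes, differed by 3.77 to 3.92 log2 units between the groups, and *Pkn2*, a protein kinase, by 0.91. The 6 arrays share the group difference, which sets most of such a correlation. After the group means were removed, the closest were *Klc4*, *Nme7*, *Pfkp*, *Aspscr1* and *Fpgs* (r = 0.994 to 0.997), so *Pfkp* was in both lists. These were picked as the highest among 8225 tested symbols over 6 arrays, so high r values follow in part from the choice.

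Other p53 targets held calls in both directions, and the share called lower was no larger than that over the whole array. A list of 43 further targets had 38 tested probes, of which 10 (26.3%, against 15.8% of all tested probes) were higher, 6 (15.8%, against 17.3%) lower and 22 not called, with a median difference of 0.12. Among genes of arrest and repair, *Gadd45a* rose by 1.21 ± 0.33 (limma adjusted p = 0.0277) and by 1.005 ± 0.37 on a second probe that was not called (0.0713), *Zmat3*, an RNA-binding regulator, rose by 0.55 ± 0.14 (0.0227), and *Ddb2*, a damage sensor, rose by 0.39 ± 0.12 on 1 probe (0.0431) and differed by 0.03 on the other. Among genes of cell death, *Bbc3* (Puma) rose by 1.02 ± 0.27 on 1 probe (limma adjusted p = 0.0265) and differed by -0.06 on the other, *Pmaip1* (Noxa) was not detected, and the death receptor *Fas* fell on both probes, by 1.72 ± 0.14 (limma adjusted p = 0.000276) and, on the other, by 1.64 ± 0.17. *Ndrg1* rose by 2.18 and 2.49 and *Trp53i11* by 1.36, *Dusp4*, a phosphatase detected on no hSRY-OFF array, was at least 1.93-fold higher, and the metabolic targets *Aldh4a1* and *Gls2* (2 probes) fell, with differences of -2.12, -1.14 and -0.95. *Sesn2*, a relative of *Sesn1*, differed by 0.35 ± 0.19 and was not called (0.209).

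Genes that act on p53 were mostly not called. Of 14 tested probes from 11 regulators, 2 were higher (14.3%, against 15.8% of all tested probes) and 0 lower (against 17.3%). At an unadjusted p under 0.05 limma gave 4 higher and 1 lower, which is near the 23.0% of all tested probes for the higher ones. The 2 were *Sirt1*, a deacetylase of p53, with 0.44 ± 0.13 (limma adjusted p = 0.0399), and 1 probe of the ribosomal protein gene *Rpl23*, with 0.55 ± 0.12 (0.0123). *Mdm4*, the partner of Mdm2, was not detected. Without single arrays 0 to 3 of these probes were called.

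The rise of *Cdkn1a* stood beside falls of other cell cycle genes. Among CDK inhibitors and the cyclins and kinases that p21 binds, 18 probes were tested. Of these 1 was higher (5.56%, against 15.8% of all tested probes) and 6 were lower (33.3%, against 17.3%). *Cdkn1c*, which encodes the related inhibitor p57 and is imprinted, read 13.41, 13.23 and 13.76 in hSRY-OFF and 11.80, 11.78 and 11.66 in hSRY-ON livers. It moved opposite to *Cdkn1a*, falling by 1.72 ± 0.16 (limma adjusted p = 0.000438) without overlap of the groups. The 3 probes of *Ccnd1*, the G1 cyclin D1, fell, with differences of -2.28, -2.05 and -1.91, as did *Ccne2* with -0.56 and *Cdk1* (written Cdc2a on the array) with -0.62, while *Ccnd2* rose by 0.46 (limma adjusted p = 0.0473). *Cdkn1b* (p27) was not detected.

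Cell cycle genes that p21 is known to repress through RB-family complexes leaned downward. Of 35 tested probes 33 had a negative difference, against 48.6% of all tested probes, and their median was -0.42 log2 units. Yet 6 were called lower (17.1%), close to the share over the whole table, and 0 higher, while at an unadjusted p under 0.05 limma gave 13 lower and 0 higher, against 22.4% and 23.0% of all tested probes. The called probes were both of *Tk1* (differences of -1.20 and -1.12) and 2 of *Tyms* (-1.08 and -0.76), which encode enzymes of thymidylate supply, and those of the mitotic motor *Kif11* (-0.63) and of *Cdk1*. The count was unstable: 12 probes were called after median scaling and 24 with array weights. Without hSRY-ON replicate 3 it was 21, and without any other single array 4 or 5. In bulk liver, fewer dividing cells and less of these transcripts per cell cannot be told apart.

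Relatives of the members by sequence or protein family were also called in both directions. Of 33 tested probes 9 (27.3%, against 15.8% of all) were higher and 6 (18.2%, close to the 17.3% of all) lower, with a median of 0.08. *Btg1*, the relative of the undetected *Btg2*, rose on both probes by 1.04 ± 0.23 and 0.83 ± 0.20 (limma adjusted p = 0.0134 and 0.0181), and *Btg3*, detected on 1 of 3 hSRY-OFF arrays, by 1.07. Of the relatives of *Bax*, *Bok* rose by 1.09 on 1 probe and *Bnip3l* by 1.02, while *Bik* fell by 1.09. A second *Bok* probe, which no hSRY-OFF array detected, was not called (limma adjusted p = 0.122). Of those of *Gdf15*, *Tgfb3* rose by 2.19 and *Inhbc*, a liver activin subunit, fell by 2.07. *Trp53inp2* differed by -0.26 ± 0.15 (limma adjusted p = 0.210), and *Ccng2* was not detected.

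Some members are also known targets of pathways other than p53, and those pathways were read from their own lists. Of 14 tested probes of the integrated stress response, the ATF4-led program that can induce *Gdf15* and *Sesn2*, 11 were higher and 0 lower. That is 78.6% higher, against 15.8% of all tested probes, and the 11 came from 6 genes. The median difference was 1.51. At an unadjusted p under 0.05 limma gave 12 higher and 0 lower, against 23.0% and 22.4% of all tested probes. *Trib3*, a pseudokinase, rose by 3.86 and 3.30 on probes detected in some or all controls and was at least 6.44-fold higher on another probe that no control array detected. The 3 *Vldlr* probes rose by 1.56 to 1.65, *Ppp1r15a* by 1.47, *Ddit3* by 1.35, *Asns* by 1.06 and 0.81 and *Atf4* itself by 0.66. Of 8 tested probes of glucocorticoid targets 3 (37.5%, against 15.8% of all tested probes) were higher and 0 lower. Called were both probes of the clock gene *Per1* (2.17 and 2.10) and that of the phosphatase *Dusp1* (1.22). At an unadjusted p under 0.05 limma gave 5 higher and 0 lower, against the same 23.0% and 22.4%. Not called were *Ddit4* (2.32), *Sgk1* (0.92), *Fkbp5* (0.37) and both probes of *Tsc22d3*, which differed by -0.49 and -0.16. *Tat* was not detected. How much of the members' differences goes with either pathway was not tested.

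**Figure D4:**
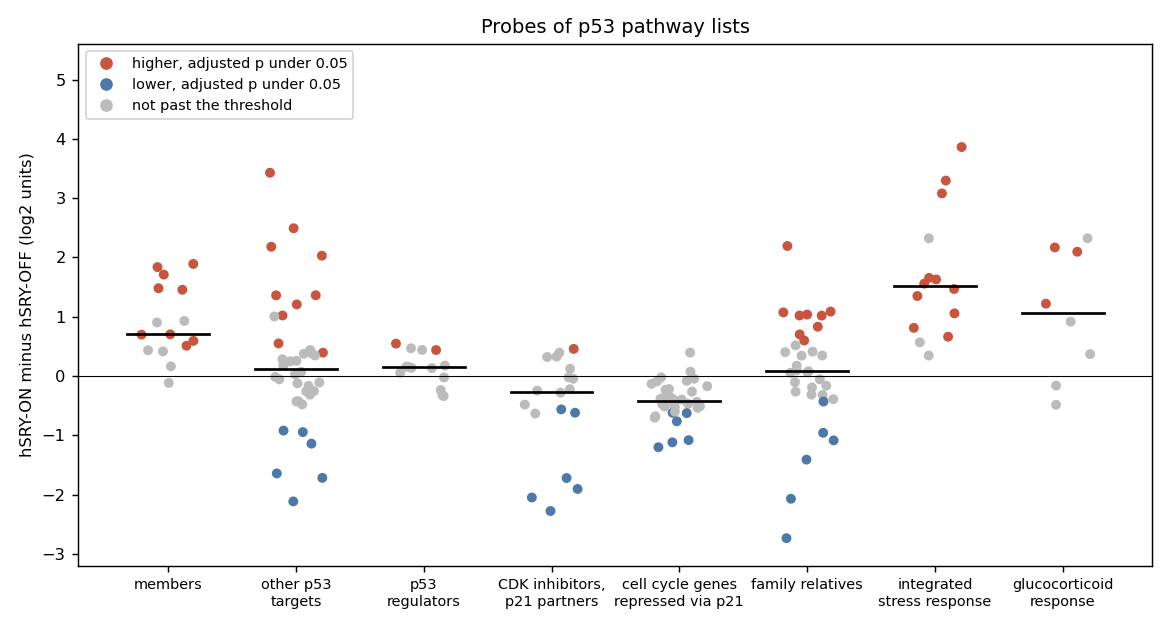
Difference hSRY-ON minus hSRY-OFF (vertical axis, log2 units) of every tested probe of the members and of 7 related lists, red where called higher, blue where called lower and grey otherwise, with a black line at each median; horizontal positions within a list are arbitrary. The median is 0.70 for the members, 0.12 for other p53 targets, -0.42 for cell cycle genes repressed via p21 and 1.51 for the integrated stress response; a few probes are in more than 1 list.

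Of the 8 hepatocyte markers on the array, *Alb*, *Apoa1*, *Apoa2*, *Ahsg*, *Ttr*, *Hnf4a* and *Serpina1a* were detected on all 6 arrays, and *Fgb* on 1. Summed over detected marker probes, hepatocyte intensities were 136826 to 144033 in hSRY-ON against 153153 to 158703 in hSRY-OFF livers, lymphocyte 309 to 666 against 1112 to 1136, macrophage 7913 to 9981 against 10432 to 13369, and erythroid 95506 to 112221 against 73027 to 95199. The stellate sum was 18528 to 20428 against 7327 to 8132, and most of this difference was that of *Acta2*. Its 4 probes and that of *Des* were called higher, and *Lrat*, detected on no hSRY-ON array, was at least 2.23-fold lower. The other 4 tested probes were not called. The cholangiocyte sum was 234 to 1744 against 141 to 176, and most of this difference was that of *Cldn4*. *Krt7* differed by -0.08 and was not called, *Krt19* and *Sox9* were detected on no array and *Spp1* on 2. Neutrophil sums overlapped (40398 to 105978 against 51562 to 60573), with hSRY-ON replicates 1 and 2 below every control and replicate 3 above every control. Endothelial sums also overlapped (8049 to 10240 against 8630 to 10336), but 4 of 7 tested probes were called higher, those of *Lyve1* (1.94), *Oit3* (1.0005) and *Pecam1* (0.64 on both), and the bright *Clec4g* lower (-0.58). Their part in the p53 target differences was not tested. Arrays detected 10318 to 10762 probes each, with median raw intensities of 147 to 165. The array weight from limma was lowest for hSRY-ON replicate 3 (0.345), against 1.72 and 0.579 for hSRY-ON replicates 1 and 2. Replicate 3 also correlated more closely with the hSRY-OFF arrays (r = 0.929 to 0.939) than hSRY-ON replicates 1 and 2 did (0.912 to 0.921).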

How the data were processed

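Liver arrays of 3 hSRY-OFF and 3 hSRY-ON pups were grouped by the sample labels. The deposited table gave, per probe and array, a bead intensity that the authors had not normalized and a detection p-value against negative control beads that the authors' scanner software had computed. The study names TCC for its own analysis, and the submitters' processing notes name limma. Genome build and scanner settings are not given in the sources used here.

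In R 4.3.3, the nec function of limma 3.58.1 removed background (offset 16), and intensities were then quantile normalized and put on the log2 scale, so differences of dim probes are shrunken. Probes detected (p under 0.01) on at least 3 of 6 arrays were fitted with lmFit and eBayes without covariates, two-sided, with Benjamini-Hochberg adjustment over 10734 probes. Intervals are 95% and from that fit. A probe no array of 1 group detected is given as a lower bound against that group's detection floor. P-values set each difference against the spread between pups, which eBayes moderates across probes. The litters of the pups are not stated and may differ between the groups, and the number of arrays limits precision. The fit was tested on simulated data.

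Members and lists were chosen with earlier results of these data known. Named genes were all members, up to 6 called genes of smallest p in each list, and 13 relatives and targets whatever their values. Of the table's symbols 2927 were matched through 1 older name in RefSeq (GRCm38.p6) and 904 kept their own. Alternatives covered background correction, scaling, detection filter, variance model, array weights, a replicate block, an adjusted p under 0.01, probe means per symbol and each array left out. The 16 alternatives counted per probe leave out the adjusted p under 0.01 and the probe means.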

Additional observations from a re-analysis of the deposited data

How the results depend on the processing

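No difference of a tested member probe changed sign under any of the 16 alternatives run on it. The number of member probes called higher was 9 with all arrays, 4 without the detection filter, 3 at an adjusted p under 0.01 and 4 to 7 without single arrays. Of all probes tested, 15.8%, 6.06%, 6.46% and 8.35% to 18.1% were called higher in these fits. Called lower were 0 member probes each time. Without the filter *Ccng1*, *Gdf15*, *Mdm2*, *Phlda3* and *Trp53inp1* lost their calls; median scaling and scaling by trimmed means took those of *Ccng1* and *Phlda3*, and array weights took that of *Phlda3* and moved that of *Mdm2* from probe ILMN_1250774 to probe ILMN_2850753.

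Over the whole array, 1700 higher and 1854 lower probes became 693 and 972 at an adjusted p under 0.01, and 896 to 1941 and 1144 to 2123 without single arrays. At an adjusted p under 0.01 the called probes numbered 7 for other p53 targets, 0 for p53 regulators, 4 for CDK inhibitors and p21 partners, 3 for cell cycle genes repressed via p21, 7 for family relatives and 7 for the integrated stress response. For p53 regulators 0 were called after median scaling, 1 after scaling by trimmed means and 5 with array weights. For the repressed cell cycle genes these counts were 12, 11 and 24, and array weights gave 5 for glucocorticoid targets. With probes averaged per symbol, 6 integrated stress response genes were called. Without single arrays the called probes numbered 8 to 17 for other p53 targets, 0 to 3 for regulators, 4 to 8 for CDK inhibitors and partners, 4 to 21 for repressed cell cycle genes, 8 to 16 for family relatives, 8 to 12 for the integrated stress response and 2 to 6 for glucocorticoid targets. The cause of these shifts was not tested.

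The labels do not say whether pups of equal replicate number share anything besides the number. Their deviations from the group means correlated by 0.0248, 0.0955 and 0.0523, and not every pup correlated best with its own number. With the replicate block, 6 member probes and 1 regulator probe were called, and *Ccng1*, *Gdf15* and *Mdm2* lost their calls.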

Other observations

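*Lpin1*, a phosphatidate phosphatase that p53 and fasting signals can induce, was named after its values were seen. It belongs to the list of other p53 targets and is already counted among the higher probes there. It read 6.36, 7.11 and 7.61 in hSRY-OFF and 10.29, 12.25 and 8.82 in hSRY-ON livers. Its order over the hSRY-ON pups was that of *Trp53inp1*, with replicate 2 highest and replicate 3 lowest, and it rose by 3.43 ± 0.79 (limma adjusted p = 0.0150, n = 3 per group). *Plk3*, a stress kinase also named after its values were seen, was highest in replicate 2 as well, with 10.33 against 9.01 and 9.44 in the other hSRY-ON livers and 8.08 to 8.35 in hSRY-OFF livers. It rose by 1.36 ± 0.31 (limma adjusted p = 0.0148).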
